A study of Mus musculus with 19 samples.

Results

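The simple epithelial keratins Krt7, Krt8, Krt18 and Krt19 are 4 of 21685 genes measured by mRNA sequencing in stem cells of the mouse embryo with and without Trim71 and Lin28a. They were taken by name, and the names had been selected on their low measured levels after loss of Lin28a. Those levels are therefore described without a test. All 4 passed the filter on low values, as did 14988 genes in all.

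The cells were male C57BL/6 stem cells grown in serum with LIF and enriched on magnetic beads for SSEA-1, a surface antigen of undifferentiated cells. Each genotype name gives Trim71 before Lin28a. WT-WT cells (Trimfl/fl - Lin28afl/fl) gave 4 libraries, KO-WT cells (Trim-/- - Lin28afl/fl) gave 4 that could be used, WT-KO cells (Trimfl/fl - Lin28a-/-) gave 5 and KO-KO cells (Trim-/- - Lin28a-/-) gave 5. Trim71 was deleted in its floxed cells by 500 nM 4-OHT (4-hydroxytamoxifen) over 2 days, with harvest at least 7 days afterwards. Whether the floxed cells received a vehicle is not given in the sources used here. Lin28a-intact libraries came from clones 1 and E3 and Lin28a-null libraries from clones 1-4 and C1, so the Lin28a genotype and the clone cannot be told apart. Clones 1 and 1-4 carried other labelled days than clones E3 and C1. A further KO-WT library held the average of the 4 others to within 1.5e-08 and was left out. No label says that libraries of a genotype came from separate cultures, so the spread between them may be technical.

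Keratins are the intermediate filament proteins of epithelial cells, and each filament needs a type II keratin paired with a type I keratin. Krt8 (type II) and Krt18 (type I) are the usual pair of single-layered epithelia and the earliest keratins of the mouse embryo, where they mark the trophectoderm, the outer layer of the blastocyst. Krt7 (type II) and Krt19 (type I) join them in ductal, glandular and trophoblast cells. LIN28A blocks maturation of the microRNA let-7 in stem cells, and TRIM71 is an RNA-binding ubiquitin ligase whose mRNA is itself a let-7 target.

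Values are the deposited log2 normalised expression, on which a difference of -1 is read as a 2-fold lower level. Genes near the floor varied little, such as Krt79 from -0.102 to 0.02. Whether low values had been pulled together in processing could not be checked here. If so, the folds and levels given for low values would be off. Lin28a stood between 8.21 and 8.57 in the null libraries and between 9.74 and 10.26 in the intact ones, and Trim71 between 8.77 and 9.55 against a lowest intact value of 10.04. Both transcripts thus remained measurable in the libraries labelled as lacking the gene. How complete the deletion was cannot be told from these values, so comparisons by genotype follow the labels. Pou5f1, which encodes the stem cell factor OCT4, was between 12.55 and 12.93 in every library. Fut4, which encodes an enzyme that builds the SSEA-1 antigen, lay below the filter with genotype means from 2.88 to 3.27.

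In the mouse genome build GRCm38, Krt7 lies at chr15:101411043-101430313 on the plus strand, Krt8 at chr15:101996698-102004482 on the minus strand and Krt18 at chr15:102028180-102032027 on the plus strand. Krt8 and Krt18 are near neighbours with 23697 bases between them, while Krt7 lies 566384 bases away from Krt8. Krt19 lies on another chromosome, at chr11:100140810-100148665 on the minus strand. The annotated Gm36026 overlaps the 5′ end of Krt8, Gm671 overlaps that of Krt7, and Krt8-ps is a processed copy of Krt8 on chromosome 7. How the authors assigned reads that such genes share is not given in the sources used here, so a share of these values is uncertain. Krt8-ps itself was low, at 2.85 ± 0.074 in WT-WT (SD, n = 4) and 1.68 ± 0.073 in WT-KO (n = 5).

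The keratins moved together, so the letters around their RefSeq start sites (build GRCm38.p6) are shown for the 3 members with an entry. Windows ran from 250 bases before to 50 after the start and were searched on both strands for the CACCC letters of Klf sites, the GGGCGG letters of Sp sites, the TGANTCA letters of AP-1 sites, the CCAAT box and the TATAAA box. Of these motifs, CACCC alone was one that all 3 windows held, and 57.5% of 32851 promoter windows held it. GGGCGG stood in Krt7 alone of the 3 (35.7% of windows) and TATAAA in Krt8 alone (13.6%). Neither CCAAT (37.4%) nor TGANTCA (7.81%) was found in any of the 3. Capitals mark CACCC, or GGGTG where it lies on the other strand, in stretches at chr15:101412153-101412401 (plus strand) for Krt7, chr15:102004483-102004592 (minus strand) for Krt8 and chr15:102027966-102028179 (plus strand) for Krt18. A further stretch of Krt8 (chr15:102004326-102004355, minus strand) has TATAAA in capitals. These letters span the RefSeq start itself, from -1 to 4, and do not lie upstream of it. That stretch, like the Krt7 one, lies inside the annotated span of its gene. These letters are a description and not evidence of a bound factor. Krt19 is named only.
Krt7: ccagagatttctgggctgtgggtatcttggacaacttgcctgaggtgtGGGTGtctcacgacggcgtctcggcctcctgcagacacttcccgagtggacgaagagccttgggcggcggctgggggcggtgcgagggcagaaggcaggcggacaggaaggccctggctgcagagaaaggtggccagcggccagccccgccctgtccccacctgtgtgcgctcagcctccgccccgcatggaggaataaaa
Krt8: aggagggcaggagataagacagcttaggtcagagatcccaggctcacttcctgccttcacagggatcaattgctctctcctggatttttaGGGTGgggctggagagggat
Krt8 TATA stretch: ggcctcttctttTATAAAgggccttcgctg
Krt18: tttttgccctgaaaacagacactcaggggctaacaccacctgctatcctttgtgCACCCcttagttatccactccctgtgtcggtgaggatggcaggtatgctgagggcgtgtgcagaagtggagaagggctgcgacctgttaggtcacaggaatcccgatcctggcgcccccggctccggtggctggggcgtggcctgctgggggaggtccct

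The study concerns let-7, so the transcripts were also searched for the let-7 seed match. The mature let-7a sequence is shown with its seed, bases 2 to 8, in capitals.
mmu-let-7a-5p: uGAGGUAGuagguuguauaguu
The complementary letters CTACCTC occurred 0 times in the annotated transcript of Krt7, Krt8, Krt18 or Krt19, 3′ UTR included. Among 11418 genes whose transcripts were between 1437 and 4094 bases long, the range of the members, 18.8% held them. The absence says only that these letters are not in these transcripts.

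Loss of Lin28a went with much lower levels of all 4 keratins, in cells with and without Trim71. Krt8 and Krt18 were about as far down as each other, Krt7 less so and Krt19 least. Every Lin28a-null library lay below every Lin28a-intact library for each of the 4, which held for 9.29% of all genes tested. The members were chosen for this contrast, so that share is given as background only. In libraries of whole populations, fewer keratin-positive cells and less keratin mRNA per cell cannot be told apart.

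Krt8, the type II partner, stood at 10.74, 11.33, 10.84 and 10.92 in WT-WT replicates 1 to 4 (labelled days 1, 3, 4 and 5). In KO-WT it stood at 11.02, 10.74, 10.90 and 11.23 (days 2 to 5). The intact groups overlapped almost fully. In WT-KO the values were 6.51, 6.79, 6.89, 6.89 and 6.625 (days 1 to 5). In KO-KO they were 7.47, 6.92, 6.72, 7.05 and 6.91 (days 1 to 5). The day 1 library of KO-KO was the highest null library, still 3.27 below the lowest intact one. Genotype means were 10.96 ± 0.261 for WT-WT, 10.97 ± 0.202 for KO-WT, 6.74 ± 0.170 for WT-KO and 7.01 ± 0.281 for KO-KO (SD, n = 4, 4, 5 and 5).

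Krt18, the type I partner, followed the same course, with libraries in the same order of days. Its WT-WT values were 10.54, 11.02, 10.71 and 10.93. KO-WT libraries read 10.89, 10.57, 10.70 and 10.89. As for Krt8, the intact groups overlapped. The WT-KO libraries held 6.35, 6.61, 6.79, 6.79 and 6.47. Those of KO-KO held 7.24, 6.61, 6.52, 6.69 and 6.61. Again day 1 of KO-KO was the highest null library, and the gap to the lowest intact library was 3.30. The means were 10.80 ± 0.215, 10.76 ± 0.154, 6.60 ± 0.196 and 6.73 ± 0.292 in WT-WT, KO-WT, WT-KO and KO-KO (SD, n = 4, 4, 5 and 5).

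Krt7, the type II keratin of ducts and trophoblast, read 8.01, 8.34, 7.99 and 8.36 in WT-WT. It read 8.43, 8.15, 7.87 and 8.12 in KO-WT. No intact library exceeded 8.43. After Lin28a loss with Trim71 present the values were 4.91, 4.84, 5.00, 5.335 and 4.87. With both genes lost they were 5.19, 4.81, 4.77, 5.06 and 4.91. The highest null library was day 4 of WT-KO, 2.54 below the lowest intact one. Its means were 8.18 ± 0.203, 8.14 ± 0.226, 4.99 ± 0.202 and 4.95 ± 0.175 (SD, same groups and n).

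Krt19, a type I keratin of ducts and early embryonic epithelia, was at 7.52, 8.11, 7.54 and 7.69 in WT-WT. In KO-WT it was at 8.12, 7.70, 7.59 and 8.09. These ranges overlapped as well. WT-KO libraries gave 4.52, 4.94, 4.90, 5.15 and 4.77. KO-KO libraries gave 5.80, 4.95, 5.01, 5.45 and 5.17. Krt19 had the smallest gap between the null and intact libraries, 1.73, set by day 1 of KO-KO. The means were 7.71 ± 0.273, 7.88 ± 0.269, 4.86 ± 0.230 and 5.28 ± 0.350 (SD, same groups and n).

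**Figure D1:**
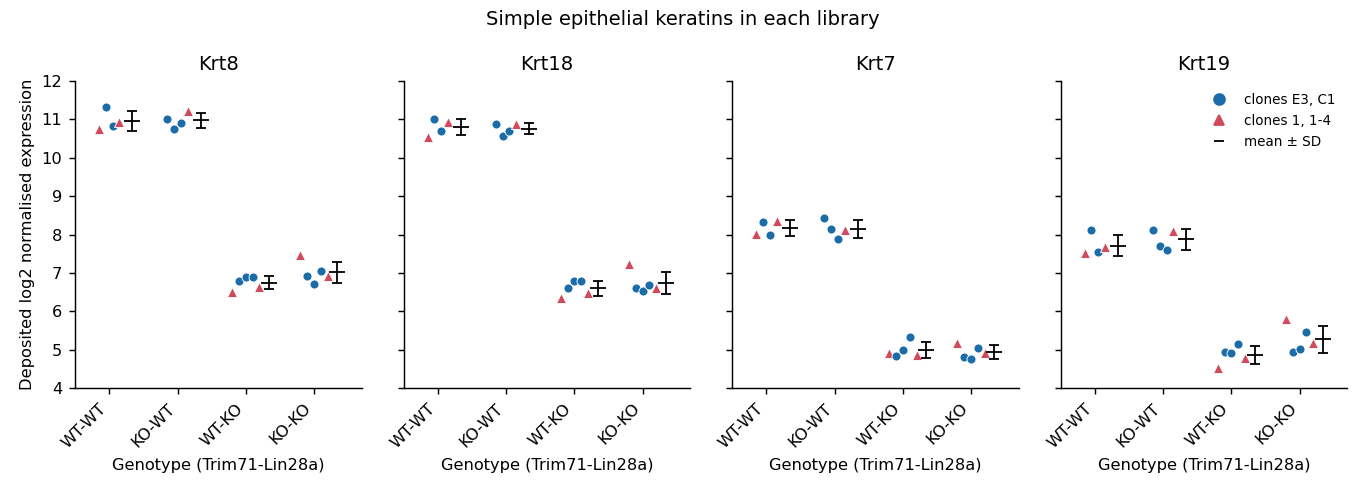
Deposited log2 normalised expression of each keratin (y axis) in each library, by genotype (x axis, Trim71 state first); circles are clones E3 and C1, triangles clones 1 and 1-4, and the bar beside each group is its mean ± SD (n = 4, 4, 5 and 5). All Lin28a-null libraries (WT-KO and KO-KO) sit below all Lin28a-intact ones, by 1.73 (Krt19) to 3.30 (Krt18).

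Fitted differences put sizes on this. With Trim71 intact, Krt8 differed after Lin28a loss by -4.22 ± 0.152 (SE) on the log2 scale, an 18.6-fold lower level. Krt18 differed by -4.20 ± 0.147, or 18.4-fold. Counted from the most lowered of 14988 genes, they held ranks 2 and 3. Krt7 differed by -3.19 ± 0.137 (9.10-fold lower, rank 11) and Krt19 by -2.86 ± 0.188 (7.24-fold lower, rank 19). In the same comparison 189 genes, 1.26% of those tested, were at least 2-fold lower.

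Without Trim71 the Lin28a differences were -3.96 ± 0.152 for Krt8, -4.03 ± 0.147 for Krt18, -3.20 ± 0.137 for Krt7 and -2.60 ± 0.188 for Krt19. The order of the 4 was nearly kept, with Krt18 and Krt8 closer than their errors in both Trim71 states. Against WT-WT, cells without both genes differed by -3.95 for Krt8, -4.07 for Krt18, -3.23 for Krt7 and -2.44 for Krt19. This comparison shares its control libraries with the first and its null libraries with the second, so the 3 are not independent.

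Libraries with the same labelled day gave 4 pairs with Trim71 intact and 4 without, and each keratin was lower in the Lin28a-null library of every pair. With Trim71 intact, the pairs ran from -4.44 to -3.95 for Krt8, from -4.46 to -3.92 for Krt18, from -3.50 to -2.65 for Krt7 and from -3.20 to -2.39 for Krt19. With Trim71 intact the size was also alike in the 2 sets of clones. In clones E3 and C1 alone the differences with Trim71 intact were -4.24 for Krt8, -4.14 for Krt18, -3.11 for Krt7 and -2.84 for Krt19. In clones 1 and 1-4 alone they were -4.27, -4.33, -3.30 and -2.96 in the same order. For loss of both the sets lay further apart, which was not tested. Clones E3 and C1 gave -4.20 for Krt8, -4.26 for Krt18, -3.29 for Krt7 and -2.70 for Krt19. Clones 1 and 1-4 gave -3.64, -3.81, -3.14 and -2.12.

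**Figure D2:**
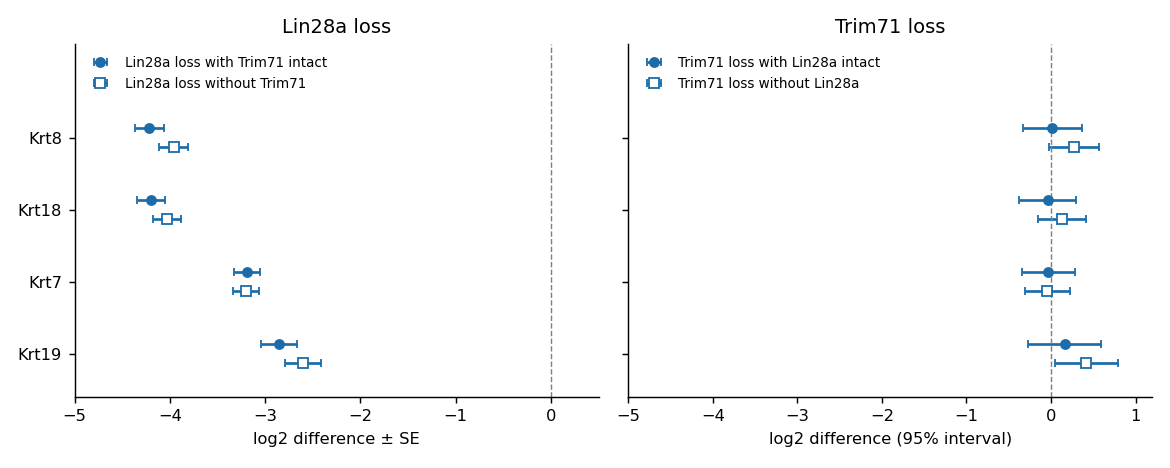
Log2 difference (x axis) of each keratin after Lin28a loss (left, bars are ± SE) and after Trim71 loss (right, bars are 95% intervals), with the other gene intact (filled) or lost (open). Lin28a differences run from -4.22 to -2.60, whereas Trim71 differences run from -0.04 to 0.42.

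Levels of different genes can be compared only per length. Per kilobase of annotated transcript, WT-WT cells held Krt18 at a log2 level of 10.28 ± 0.215 and Krt8 at 9.99 ± 0.261 (SD, n = 4). Both were far above Krt19 at 7.06 ± 0.273 and Krt7 at 6.14 ± 0.203. Per kilobase of coding sequence the levels were 10.46 for Krt18, 10.40 for Krt8, 7.72 for Krt7 and 7.44 for Krt19. The order of Krt7 and Krt19 thus depended on the length used, while Krt8 and Krt18 did not differ beyond their spread on the coding scale. In WT-KO cells the coding-scale levels were 6.26 for Krt18, 6.18 for Krt8, 4.58 for Krt19 and 4.535 for Krt7.

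Keratins work in pairs, so the balance within pairs was followed through each library. The log2 difference of Krt8 minus Krt18 was 0.157 ± 0.134 in WT-WT, 0.211 ± 0.0892 in KO-WT, 0.138 ± 0.0397 in WT-KO and 0.277 ± 0.0667 in KO-KO (SD, n = 4, 4, 5 and 5). Over all 18 libraries it stayed between -0.0072 and 0.359, although both keratins were about 4 log2 units lower in the null cells. KO-KO lay above WT-KO in that balance without overlap, from 0.197 against at most 0.186. Krt7 minus Krt19 went from 0.463 ± 0.182 in WT-WT and 0.267 ± 0.177 in KO-WT to 0.133 ± 0.176 in WT-KO and -0.331 ± 0.180 in KO-KO. In KO-KO this difference ran from -0.612 to -0.142, below every WT-KO library (-0.0974 to 0.387). Among the 3 other genotypes the ranges overlapped. How many other gene pairs separate KO-KO from WT-KO was not computed, so both separations are descriptions and were not tested.

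Whether Trim71 loss altered the keratins was a comparison that had not been used to choose them, so it was tested over all genes with limma. With Lin28a intact, 0 of 4 keratins passed the Benjamini-Hochberg adjusted threshold of 0.05, where 11.2% of all genes did, and 0 had an unadjusted p under 0.05. The difference was 0.01 ± 0.164 for Krt8 (SE; limma adjusted p = 0.964, 95% interval -0.33 to 0.36). For Krt18 it was -0.04 ± 0.159 (adjusted p = 0.897, interval -0.37 to 0.30). Krt7 differed by -0.03 ± 0.148 (adjusted p = 0.909, interval -0.35 to 0.28) and Krt19 by 0.16 ± 0.203 (adjusted p = 0.631, interval -0.27 to 0.59). These intervals leave room for moderate changes in either direction. In the 3 same-day pairs, Krt7 and Krt18 were lower in all 3 and Krt8 and Krt19 higher in 2.

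Without Lin28a, again 0 of 4 keratins passed, where 8.38% of all genes did, and 1 of 4 had an unadjusted p under 0.05. That was Krt19, at 0.42 ± 0.174 (SE; limma adjusted p = 0.159, interval 0.05 to 0.79), higher in 5 of 5 same-day pairs. Those pairs ran from 0.0142 to 1.27, the top being day 1. Krt8 differed by 0.27 ± 0.140 (adjusted p = 0.266, interval -0.03 to 0.57) and was higher in 4 of 5 pairs. Krt18 differed by 0.13 ± 0.136 (adjusted p = 0.618) and Krt7 by -0.045 ± 0.127 (adjusted p = 0.878). Leaving out the day 1 library of KO-KO brought Krt19 to 0.22 (adjusted p = 0.474) and Krt8 to 0.10 (adjusted p = 0.708).

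These values differed between the clone sets, a difference that was not tested. In clones 1 and 1-4 alone, Trim71 loss without Lin28a gave 0.84 for Krt19 (limma adjusted p = 0.0613), 0.62 for Krt8 (0.0746), 0.52 for Krt18 (0.202) and 0.16 for Krt7 (0.619). In clones E3 and C1 alone it gave 0.14 for Krt19, 0.04 for Krt8, -0.12 for Krt18 and -0.18 for Krt7, with adjusted p from 0.714 to 0.943. A test of whether the Trim71 difference depended on Lin28a called 0 of 4 keratins, and 0 of 4 at an unadjusted p under 0.05, where 0.02% of genes were called. The interaction was 0.26 ± 0.216 for Krt8, 0.17 ± 0.209 for Krt18, -0.01 ± 0.195 for Krt7 and 0.25 ± 0.268 for Krt19, with limma adjusted p from 0.579 to 0.982.

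The keratins also varied together from library to library within a genotype. In 13 of 18 libraries all 4 lay on the same side of their genotype means. The library of KO-KO on day 1 was highest of its group for each, above the genotype mean by 0.45 for Krt8, 0.51 for Krt18, 0.24 for Krt7 and 0.52 for Krt19. Day 1 of WT-KO, from the same clone, had all 4 below their means, by -0.23, -0.25, -0.08 and -0.33 in the same order. With day differences removed, the deviations of a labelled day cancel across genotypes. The low WT-KO values therefore partly mirror the high KO-KO ones and are not a separate observation. Across the 10 null libraries, the deviations of Krt8 and Krt18 had a Pearson r of 0.976 and those of Krt7 and Krt8 of 0.746. Across the 8 intact libraries these were 0.876 and 0.449. The 13 of 18 and the r values are descriptions: the points share normalisation and removed day effects.

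Marker lists of other cell types were read in the same libraries. In the day 1 library of KO-KO the members deviated by a mean of 0.432, primitive endoderm markers by 0.253, fibroblast and mesenchyme markers by 0.190, trophectoderm markers by 0.0545 and stem cell markers by -0.015. In WT-WT on day 3, where the members deviated by 0.287, primitive endoderm markers deviated by 0.107 and fibroblast markers by -0.0076. Over the 18 libraries the means of the members and of the primitive endoderm markers deviated to the same side in 12 and to opposite sides in 6, such as WT-WT on day 4 (-0.144 and 0.152). Their part in the keratin deviations was not tested. Deviations of a labelled day cancel across genotypes for these lists too, so the libraries are not independent.

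**Figure D3:**
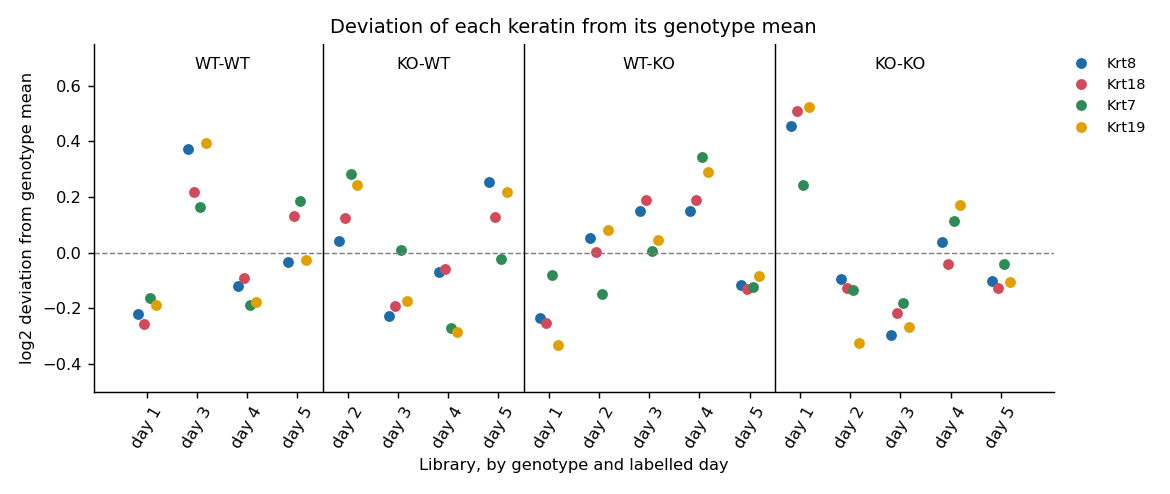
Log2 deviation of each keratin from its own genotype mean (y axis) in each of the 18 libraries, ordered by genotype and labelled day (x axis). The 4 colours mostly sit together, with day 1 of KO-KO highest for Krt18 and Krt19 at 0.51 and 0.52.

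Which genes had the profile most like each keratin was read from the mean absolute log2 difference between centred profiles over 18 libraries. For Krt8 the nearest gene was Krt18, and the reverse, at 0.0736. The next were Cubn, an endocytic receptor of visceral endoderm (0.274 from Krt8 and 0.303 from Krt18), and Gm27483 (0.332 and 0.302), which is annotated inside the span of the noncoding RNA gene H19. Genes near Krt7 included Anxa2, encoding a membrane-binding annexin (0.196), and Tinagl1, encoding a matrix protein (0.213). Krt19 lay nearest to Tinagl1 (0.137) and to Col4a1 and Col4a2, the basement membrane collagen IV chains (0.146 and 0.161). Krt7 and Krt19 were thus not each other's nearest profile. Centred profiles hold the Lin28a difference for which the members were chosen, so genes with a Lin28a difference of like size come out near. The distances are therefore a description and no separate evidence of shared profiles.

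Other keratins did not share one direction. Of 15 others measured, 5 passed the filter, and after Lin28a loss with Trim71 intact 2 of the 5 were lower and 2 higher, where 42.4% of all genes were called, 22% lower and 20.3% higher. Krt20, a keratin of intestinal epithelium, fell by 1.63 ± 0.0963 (SE; limma adjusted p = 2.84e-09), from a mean of 4.96 to 3.32. Krt10, a keratin of upper epidermal layers, fell by 0.35 ± 0.0765 (adjusted p = 0.00182), but not past the threshold in either clone set alone (0.0779 in E3 and C1, 0.0734 in 1 and 1-4). Krt17, a keratin of skin appendages and injured epidermis, rose by 0.80 ± 0.113 (adjusted p = 3.9e-05) and the type I keratin Krt42 by 0.58 ± 0.108 (adjusted p = 0.000446). Krt16 differed by 0.08 ± 0.0900 (adjusted p = 0.504). After Trim71 loss with Lin28a intact Krt17 rose by 0.57 ± 0.122 (adjusted p = 0.0112), a call lost in each clone set alone and 3 other settings; without Lin28a limma called 0 of the 5, and 2 had an unadjusted p under 0.05 (Krt17 at 0.29 and Krt42 at -0.31). Krt5 and Krt14, the pair of basal epidermis, lay below the filter with every genotype mean at most 2.73.

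Genes whose products anchor keratin filaments were lower in part. Of 15 tested members of the desmosome and keratin-binding list, 6 fell after Lin28a loss with Trim71 intact and 0 rose, where 22% and 20.3% of all genes did, with a median difference of -0.14 against -0.01 for all genes. The largest falls were in Dsc2, a desmosomal cadherin (-1.61 ± 0.130, limma adjusted p = 1.05e-07), Dsp, which ties keratins to desmosomes (-1.46 ± 0.116, adjusted p = 9.1e-08), and Perp, a desmosomal membrane protein (-1.20 ± 0.0662, adjusted p = 1.19e-09). Each was smaller than the difference of any of the 4 keratins. For Lin28a loss without Trim71, 7 of the 15 fell and 3 rose, where 3292 of all 14988 genes fell and 3120 rose. For loss of both, 5 of the 15 fell and 7 rose, with a median of 0.11, where 3691 of all genes fell and 3143 rose. After Trim71 loss 4 of the 15 rose with Lin28a intact and 5 without it, where 4.74% and 4.26% of all genes rose, among them Jup, encoding plakoglobin (0.43 with Lin28a intact, adjusted p = 0.00013), and Perp (0.38 and 0.52, adjusted p = 0.00549 and 0.000103). In clones E3 and C1 alone those counts were 0 and 2, where only 5 and 74 of all 14988 genes rose.

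Junction and epithelial genes were called in both directions after Lin28a loss. Of 29 tested, 9 fell and 5 rose, with a median of -0.02, where 22% of all genes fell and 20.3% rose. In clones E3 and C1 alone 4 fell and 3 rose, where 1283 of all 14988 genes fell and 1040 rose. Cdh1, encoding E-cadherin, differed by 0.04 ± 0.0379 (limma adjusted p = 0.46) and Epcam, an epithelial adhesion molecule, by -0.08 ± 0.0424 (adjusted p = 0.166). Among 13 tested intermediate filament genes outside the keratins, 5 fell and 3 rose (1 in clones E3 and C1 alone): Lmna, encoding lamins A and C, fell by 0.72 and Vim, encoding vimentin, by 0.64, while the neuronal Ina rose by 0.74 (adjusted p = 1.21e-07, 3.96e-06 and 0.000156). After Trim71 loss with Lin28a intact, 12 of the 29 epithelial genes rose and 1 fell. Of all 14988 genes 4.74% rose and 963 genes fell there. Without Lin28a 7 of the 29 rose and 0 fell, where 4.26% of all genes rose and 617 genes fell. In clones E3 and C1 alone no epithelial gene rose past the threshold in either state (0 and 0). Of all 14988 genes only 5 rose there with Lin28a intact and 74 without. Counts from so few calls cannot show whether the epithelial rise was kept in these clones.

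**Figure D4:**
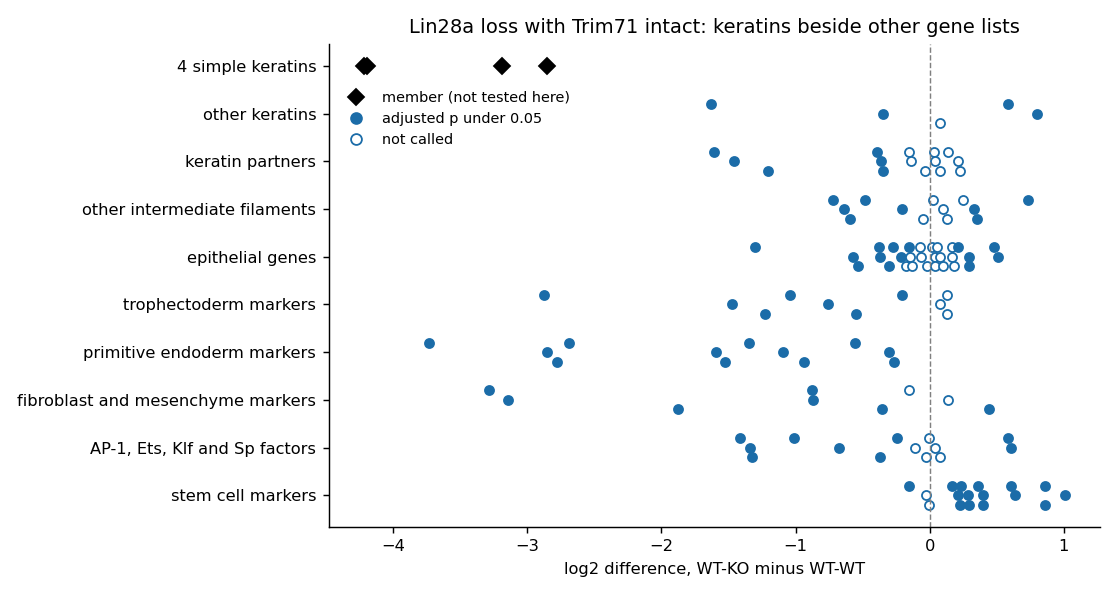
Log2 difference after Lin28a loss with Trim71 intact (x axis, WT-KO minus WT-WT) for the 4 keratins (diamonds) and each tested gene of the other lists (circles, filled where the adjusted p is under 0.05); vertical offsets within a list only separate points. The keratins, at -4.22 to -2.86, lie left of all but a few genes, such as Cubn at -3.74 and Acta2 at -3.29.

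Krt7, Krt8, Krt18 and Krt19 are expressed in several embryonic and extraembryonic cell types, so markers of those types are given beside them for Lin28a loss with Trim71 intact, in which 22% of all genes fell and 20.3% rose. Of 10 tested trophectoderm markers 7 fell and 0 rose, including Hand1 (-2.88 ± 0.132, limma adjusted p = 1.51e-10) and Gata3 (-1.47 ± 0.0712, adjusted p = 2.8e-10), both trophoblast transcription factors. The defining factors Cdx2 and Elf5 lay below the filter, Elf5 between 0.771 and 1.02 in every library. Eomes, another trophectoderm factor of the list, passed the filter and was not called (0.13 ± 0.0866, limma adjusted p = 0.241). The summed level of the 14 listed genes ran from 10.99 to 11.09 in WT-WT, 10.98 to 11.03 in KO-WT, 10.70 to 10.88 in WT-KO and 10.51 to 10.68 in KO-KO.

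Primitive endoderm markers all fell after Lin28a loss with Trim71 intact, 12 of 12 tested, with a median of -1.43. When replicate 2 of WT-WT was left out 10 fell, where 2852 of all 14988 genes did. Lin28a loss without Trim71 and loss of both each had 10 of the 12 lower, where 3292 and 3691 of all genes were lower. Cubn differed by -3.74 ± 0.204 (limma adjusted p = 1.14e-09), Dab2, an endocytic adaptor, by -2.78 ± 0.182 (adjusted p = 9.27e-09), and Gata4 and Gata6, factors that specify this lineage, by -1.60 and -1.34 (adjusted p = 6.13e-07 and 1.81e-06). Their 15 genes summed to between 13.56 and 13.73 in WT-WT and 13.66 and 13.92 in KO-WT, against 12.40 to 12.70 in WT-KO and 12.59 to 12.85 in KO-KO. Sox17 and Foxa2 lay below the filter.

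Of 9 tested fibroblast and mesenchyme markers 6 fell and 1 rose. Acta2 and Tagln, both of the smooth muscle contractile apparatus, differed by -3.29 ± 0.136 and -3.14 ± 0.146 (limma adjusted p = 6.3e-11 and 1.7e-10), whereas Fn1, encoding fibronectin, rose by 0.44 (adjusted p = 4.89e-05). The median of the 9 was -0.87. The summed level of the 12 listed genes, from 12.60 to 12.77 in WT-KO against 12.25 to 12.45 in WT-WT, went the other way and was mostly Fn1 (mean 12.175 in WT-WT). Stem cell markers rose in 14 of 17 tested, and in 7 in clones E3 and C1 alone, where 1040 of all 14988 genes rose. The 1 that fell was Dppa4, a call lost under median scaling, in each clone set alone and without WT-WT replicate 1 or 2. Nanog was higher by 0.86 ± 0.0772 (limma adjusted p = 3.44e-07). Stem cell markers summed to between 15.56 and 15.63 in WT-WT and 15.88 and 16.02 in WT-KO. The part of any of these cell types in the keratin levels was not tested.

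Transcription factors of the AP-1, Ets, Klf and Sp families are known regulators of simple keratin genes. After Lin28a loss with Trim71 intact 7 of 14 tested were lower and 2 higher, where 22% of all genes were lower and 20.3% higher. In clones E3 and C1 alone 4 were lower, where 1283 of all 14988 genes were. The lower ones included Klf6 (-1.41 ± 0.107, limma adjusted p = 4.8e-08), Fosl2 (-1.32 ± 0.0828, adjusted p = 5.79e-09) and Ets1 (-1.34 ± 0.382, adjusted p = 0.00997). For Ets1 the adjusted p was 0.0554 when replicate 4 of WT-WT was left out and 0.131 in clones E3 and C1 alone. Klf4 and Klf5 rose by 0.61 and 0.58 (adjusted p = 1.79e-06 and 1.11e-07).

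The tested gene next before Krt8 on chromosome 15 was Krt7, itself 9.10-fold lower. Outside the 4 keratins, the nearest tested genes on either side differed far less. Of these 10 genes, 5 before Krt7 and 5 beyond Krt18, 3 were lower and 2 higher after Lin28a loss with Trim71 intact. Over all genes tested 22% were lower and 20.3% higher, so these counts are near that share. The differences of the 10 ran from -0.353 to 0.244. Eif4b, a translation initiation factor gene 41745 bases beyond Krt18, differed by 0.09 ± 0.0352 (limma adjusted p = 0.0523). Around Krt19, whose neighbourhood holds the type I keratin cluster, 3 of 10 were lower and 4 higher, from -1.72 for Tns4, a focal adhesion protein gene, to 0.80 for Krt17. Neighbours were looked up after the keratin values had been seen.

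**Figure D5:**
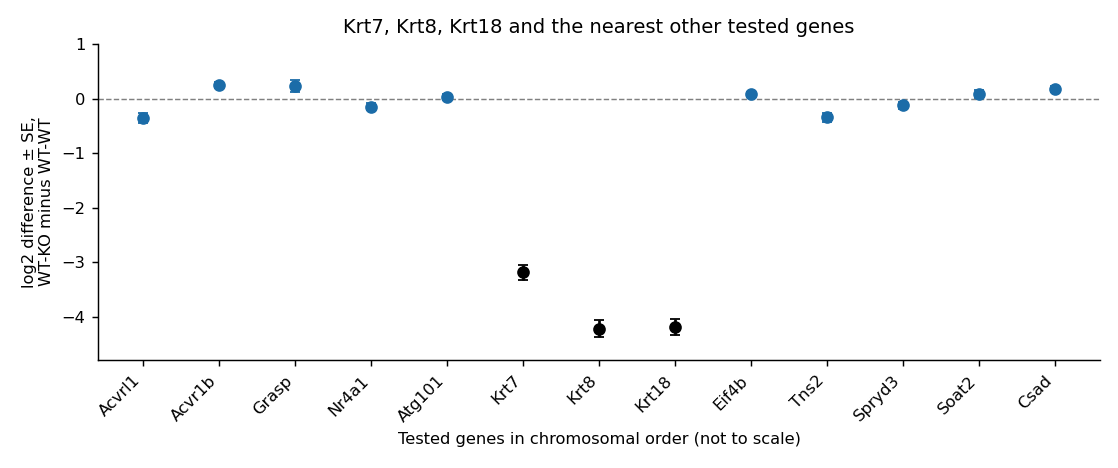
Log2 difference ± SE after Lin28a loss with Trim71 intact (y axis) for Krt7, Krt8 and Krt18 (black) and the 5 nearest other tested genes on either side of them (blue), in chromosomal order and not to scale (x axis). Krt7, Krt8 and Krt18 sit at -3.19, -4.22 and -4.20 while the 10 other genes lie between -0.353 and 0.244.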

How the data were processed

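The table holds 19 mRNA libraries. TRIzol extraction, the TruSeq RNA v2 kit and paired-end HiSeq1500 runs are named per the labels' protocols. CASAVA 1.8, STAR and DESeq2 are named by the submitters' processing notes; the genome build, annotation and strand setting are not given in the sources used here. The deposited values, from -0.712 to 16.30, were taken to be log2 normalised expression because of their range and sums. Library depth is not known and counting error could not be given. Differences between labelled days had already been removed (largest remaining day term 1.7e-08), and 1 KO-WT column was not used.

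The filter kept 14988 genes that reached a linear value of 10 in 4 or more libraries. All tests come from 1 fit in limma 3.58.1 (R 4.3.3; eBayes with trend) of genotype means plus day, with 10 residual degrees of freedom and Benjamini-Hochberg adjustment over all genes tested. Day pairs the libraries by the labels; its correlation cannot be checked in values from which it was removed. Intervals are 95%. The fit was tested on simulated data. The members and lists were chosen with earlier results of these data known. Named genes were the 4 keratins, Trim71, Lin28a, the 3 nearest profiles of each and every other tested keratin. Per list, up to 3 genes called in each direction after Lin28a loss and 2 after Trim71 loss were also named. Outside that rule, Pou5f1, Fut4, Cdh1, Epcam, Gata4, Gata6, Cdx2, Eomes, Elf5, Sox17, Foxa2, Krt5 and Krt14 were named as markers. Krt8-ps, H19, Gm36026, Gm671 and the chromosomal neighbours were named outside the rule as overlaps or neighbours. Some genes that this rule names are not reported here. Gene positions came from GENCODE, promoter and microRNA sequences from RefSeq. Alternatives changed the day term, filter, scaling, variance prior, clones, days, genotypes and single libraries.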

Additional observations from a re-analysis of the deposited data

Results flagged for a closer look

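Each keratin was checked in each genotype for a library that lay apart from the others, 16 groups in all, and 1 was found: Krt18 in KO-KO, where the day 1 library (clone 1-4) read 7.24. Its gap to the next library was 0.76 of the whole range of the group. Chance flags about 1 in 20 such groups. Without that library, Krt18 after Trim71 loss without Lin28a was -0.06 in place of 0.13, and not called either way.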

How the results depend on the processing

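Under 28 alternatives the median difference of the 4 keratins after Lin28a loss stayed between -3.79 and -3.58 with Trim71 intact and between -3.67 and -3.49 without Trim71, and for loss of both between -3.74 and -3.39. No alternative called a keratin after Trim71 loss in either Lin28a state (0 of 4 each time), nor for the interaction, where 27 were run. The lowest adjusted p was 0.0595 for Krt19 after Trim71 loss without Lin28a, in the fit without the day block on 19 libraries. Without the block on 18 libraries it was 0.0721.

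The sign of small Trim71 differences was not fixed. With Lin28a intact, clones E3 and C1 alone gave -0.21 for Krt8, -0.029 for Krt19 and 0.039 for Krt16, clones 1 and 1-4 alone gave 0.17 for Krt18 and -0.14 for Krt42, and Krt8 was -0.073 both in days 3, 4 and 5 alone and in the 2 genotypes alone. Without Lin28a, Krt18 was -0.12 in E3 and C1 and -0.080 in days 3, 4 and 5, while clones 1 and 1-4 gave 0.16 for Krt7, 0.0155 for Krt10 and 0.057 for Krt20. The interaction of Krt7 was 0.23 in clones 1 and 1-4 and 0.024 in days 3, 4 and 5. Leaving out 1 library moved Trim71 loss with Lin28a intact from -0.11 to 0.20 for Krt8, -0.13 to 0.068 for Krt18, -0.13 to 0.10 for Krt7 and -0.019 to 0.076 for Krt10. Without Lin28a the ranges were -0.062 to 0.205 for Krt18, -0.14 to 0.071 for Krt7 and -0.064 to 0.0164 for Krt10, and -0.14 to 0.10 for the interaction of Krt7. The cause was not tested.

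Of 3075 values recomputed, 2836 kept direction and side, 186 lost a call, 44 changed sign, 5 gained a call and 4 moved by more than the replicate spread. Counts over all genes moved more. After Trim71 loss with Lin28a intact 1674 genes were called, but 4219 without the block, 5162 without it on 19 libraries, 10 in clones E3 and C1, 344 in clones 1 and 1-4, 474 in days 3, 4 and 5, 30 in the 2 genotypes alone and 528 to 1978 without 1 library. Without Lin28a 1256 were called, and 2618 without the block, 2957 without it on 19 libraries, 153 in E3 and C1, 287 in 1 and 1-4, 217 in days 3, 4 and 5, 794 in the 2 genotypes alone and 676 to 1392 without 1 library. The interaction called 3, but 673 without the block, 1295 without it on 19 libraries, 1 in E3 and C1, 0 in 1 and 1-4 and in days 3, 4 and 5, and 0 to 4 without 1 library. After Lin28a loss with Trim71 intact 6351 were called, but 2323 in E3 and C1; without Trim71 6412, but 3595 in E3 and C1 and 2293 in 1 and 1-4; for loss of both 6834, but 2668 in E3 and C1, and median scaling changed its split from 3143 higher and 3691 lower to 3869 and 2965. The same scaling changed it from 3049 higher and 3302 lower to 3727 and 2725 after Lin28a loss with Trim71 intact, and from 3120 and 3292 to 3662 and 2792 without Trim71. Unknown depth and clones tied to the Lin28a state limit what these values show.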
